A study of Rattus norvegicus with 10 samples.

Results

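The 8 genes described here set the direction of sugar flow in the hepatocyte: Slc2a2, Gckr, Pfkfb1, Pfkl, Pklr, Pck1, Fbp1 and Slc37a4. They were chosen by symbol, and all 8 were found among the 12555 genes of the deposited table of rat liver RNA sequencing. In the liver, glucose enters through the transporter encoded by Slc2a2 and is then phosphorylated, a step that the Gckr protein holds back when sugar is scarce. Glycolysis then runs down to pyruvate through phosphofructokinase (Pfkl) and pyruvate kinase (Pklr), and gluconeogenesis runs back up through PEPCK (Pck1) and fructose bisphosphatase (Fbp1) to glucose that leaves the cell after a step in the endoplasmic reticulum served by Slc37a4. Pfkfb1 encodes the enzyme with a kinase and a phosphatase domain that makes and removes the sugar phosphate signal which favours phosphofructokinase and holds back fructose bisphosphatase.

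The labels give 5 libraries for a diet with 30% fewer calories through gestation (restricted 1 to 5, library codes SGA) and 5 for a normal diet (normal 1 to 5, library codes AGA). All 10 are wild type liver of Rattus norvegicus. The series title concerns catch-up growth after birth small for gestational age, but the labels do not say whether the livers are those of dams or of their offspring. The Y-linked gene Kdm5d, described below, had counts in restricted 5 and in every normal library, so these livers are unlikely to be dams'. The labels call the cells hepatocytes of a line, whereas the series' design text calls the material liver tissue. The sources used here give no sex, age, litter, feeding state or time of collection. Nothing says that each library came from a separate animal, so a p-value here reflects only how far libraries of a group differ, which may be technical.

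Total counts ran from 15052166 to 22104957 in the restricted libraries and from 14936156 to 16105083 in the normal ones. Of 7 hepatocyte markers looked for, 6 were in the table. Their summed level was 35872 to 49278 FPKM (fragments scaled to gene length and library size) in restricted and 38857 to 47401 FPKM in normal libraries, and 1 of the 6 passed the test described below, Ttr (lower; adjusted p 0.0497 in edgeR). The entry for the marker Serpina1 was near absence, with 0.459 to 1.11 CPM (counts scaled to TMM library sizes) in restricted and 0.803 to 1.44 CPM in normal libraries. Whether all reads of this gene were assigned to that entry was not tested. Restricted 5 stood apart from restricted 1 to 4 in genes known to differ between male and female rats. The Y-linked gene Kdm5d had 0 counts in restricted 1 to 4, an upper limit of 0.136 to 0.199 CPM by library (3 counts, counting error only), 19.3 CPM in restricted 5 and 18.9 to 25.6 CPM in the normal libraries. Cyp2c13, known to be expressed mainly in male liver, had 1.29 to 8.29 CPM in restricted 1 to 4, 1035 CPM in restricted 5 and 154 to 2203 CPM in the normal libraries. Cux2, known to be higher in female liver, had 13.6 to 24.0 CPM in restricted 1 to 4, 1.74 CPM in restricted 5 and 1.07 to 5.48 CPM in the normal libraries. Likely sex and diet therefore cannot be told apart in 9 of the 10 libraries, and each log2 fold change of the 8 genes is given below with and without restricted 5. A fit on only the libraries that had Kdm5d counts is also given for some genes. It holds 1 restricted library, assumed to vary like the normal ones, so a call lost or gained in it rests on that library. A fit with Kdm5d as a covariate also separates Kdm5d from diet mainly through restricted 5. Since these are bulk samples, fewer cells of a type and less RNA per cell cannot be told apart either.

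The promoters of Pklr and Pck1 are shown because these genes serve opposing reactions around phosphoenolpyruvate and had the largest fitted changes in each direction among the 8. Each sequence is from RefSeq on build GRCr8, 250 bases before to 50 after the annotated start, on the plus strand. Pklr lies at chr2:176841014-176841313 and Pck1 at chr3:182348322-182348621. Capitals in Pklr mark matches to the carbohydrate response element, searched as CACGNG, 5 bases of any kind and CNCGTG, and to the HNF1 site, searched as GTTA, 5 bases of any kind and TAAC. Capitals in Pck1 mark a match to the cAMP response element, searched as TNACGTCA. Both strands were searched and no matches overlapped.
Pklr: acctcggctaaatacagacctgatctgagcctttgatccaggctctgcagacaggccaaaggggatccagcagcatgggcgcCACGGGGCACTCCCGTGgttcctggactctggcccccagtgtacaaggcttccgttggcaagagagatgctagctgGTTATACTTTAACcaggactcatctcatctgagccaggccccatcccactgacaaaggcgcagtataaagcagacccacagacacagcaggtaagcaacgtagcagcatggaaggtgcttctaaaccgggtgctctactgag
Pck1: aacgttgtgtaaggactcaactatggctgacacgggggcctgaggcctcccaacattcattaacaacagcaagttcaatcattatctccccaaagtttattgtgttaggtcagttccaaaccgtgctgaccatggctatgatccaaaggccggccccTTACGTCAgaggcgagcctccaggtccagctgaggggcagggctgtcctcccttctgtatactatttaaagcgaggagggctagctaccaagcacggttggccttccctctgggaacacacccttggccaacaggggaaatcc
The carbohydrate response element, which is known to bind the sugar-sensing factor ChREBP with its partner Mlx, began 168 bases before the Pklr start and was found in 0.0329% of the 33469 promoters of the same length. The HNF1 match began 92 bases before that start and was found in 0.248% of promoters. The cAMP response element, known to bind CREB in the glucagon response, began 93 bases before the Pck1 start and was found in 3.25% of promoters. All 8 genes had a promoter entry, and these motifs were found in none of the other 6. These matches are a description of the letters in this window; no binding was measured.

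Compared per length, Pck1 and Fbp1 were the most abundant of the 8. In the restricted libraries Pck1 averaged 1072 ± 308 FPKM, Fbp1 510.1 ± 121 FPKM and Gckr 119.9 ± 13.0 FPKM, followed by Slc2a2 with 33.7 ± 5.45 FPKM (SD, n = 5). Pfkl, Pklr and Slc37a4 then lay together at means of 16.0, 15.7 and 13.0 FPKM, with overlapping ranges, and Pfkfb1 was lowest at 5.02 ± 2.23 FPKM. In the normal libraries Pck1 averaged 724 ± 383 FPKM, Fbp1 476 ± 78.9 FPKM, Gckr 124 ± 5.16 FPKM, Pklr 44.6 ± 6.63 FPKM and Slc2a2 30.8 ± 5.01 FPKM (SD, n = 5). Pfkl, Slc37a4 and Pfkfb1 followed at means of 16.2, 14.2 and 7.91 FPKM. Pklr thus had rank 6 of 8 in the restricted and rank 4 in the normal libraries. The ranges of Pck1 and Fbp1 overlapped in both groups, with Pck1 above Fbp1 in 5 of 5 restricted and 4 of 5 normal libraries.

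**Figure D1:**
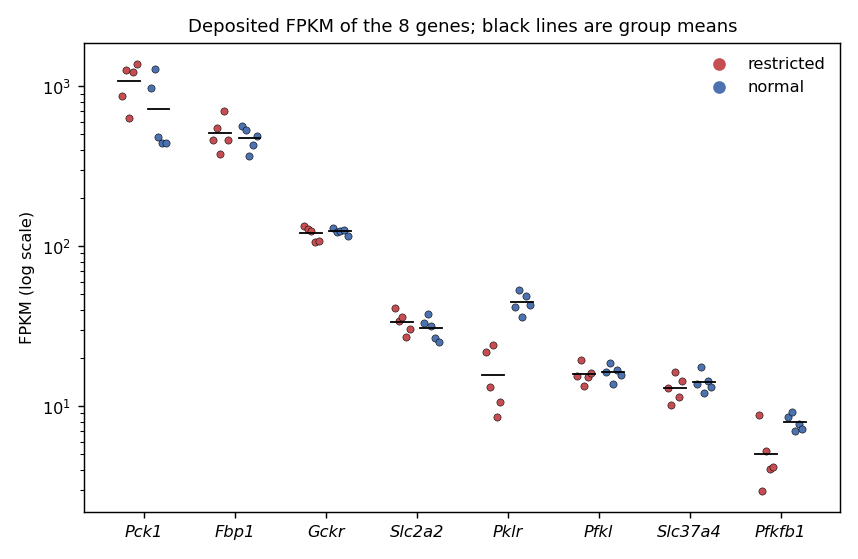
Deposited FPKM of the 8 genes on a log axis, ordered by mean over all libraries. Each point is 1 library (red restricted, blue normal) and black lines are group means; Pklr is the only gene of the 8 whose groups do not overlap.

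Restricted and normal libraries were then compared for each gene. Of the 8 genes, 1 passed the edgeR quasi-likelihood test at a Benjamini-Hochberg adjusted p of 0.05 over all 12367 genes tested, and it was lower: Pklr. Over all genes tested, 4.09% passed in either direction, 1.87% higher and 2.22% lower. DESeq2 and limma-voom also called Pklr alone of the 8, beside 8.48% and 3.64% of all genes. The median log2 fold change of the 8 was −0.06, beside 0.01 over all genes tested, and 5 of the 8 were negative. At an unadjusted p under 0.05, Pklr and Pfkfb1 of the 8 passed, both lower, beside 20.1% of all genes in either direction and 9.93% lower.

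**Figure D2:**
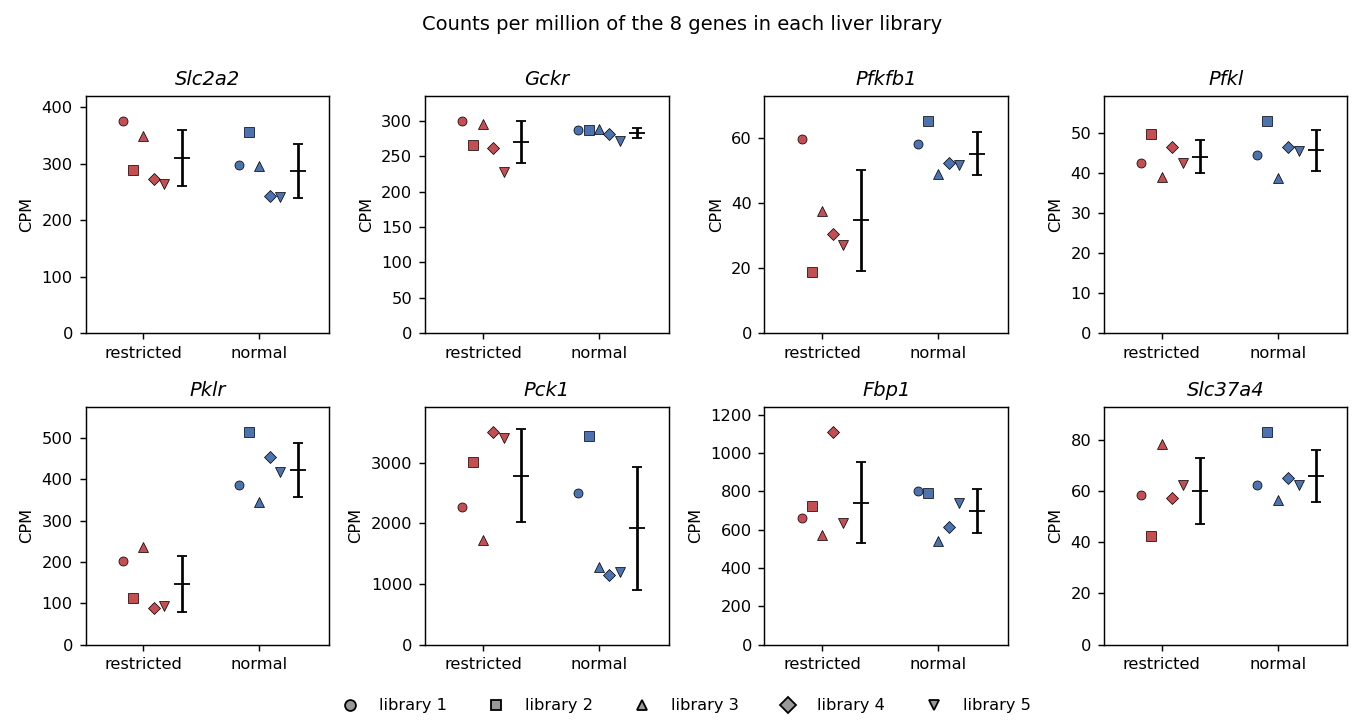
CPM of each gene in each library, with axes from 0. Symbols give the library number within a group (numbers do not pair the groups) and bars give mean ± SD of 5 libraries; the Pklr points of the restricted libraries (88.4 to 237 CPM) all sit below those of the normal ones (344 to 514 CPM).

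Transport of glucose comes first. Slc2a2 (ENSRNOG00000011875), which encodes the transporter GLUT2, had 375, 289, 348, 273 and 264 CPM in restricted 1 to 5, against 298, 356, 296, 243 and 241 CPM in normal 1 to 5. The groups overlapped, with restricted 1 the highest of the 10 libraries. The fitted log2 difference, restricted minus normal, was 0.11 ± 0.14 (SE; 95% interval −0.19 to 0.41), with an adjusted p of 0.698 in edgeR, and 0.16 without restricted 5.

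Gckr (ENSRNOG00000048874), a regulatory protein that restrains the entry of sugar into glycolysis, had 299.7, 266, 296, 262 and 228 CPM in restricted 1 to 5, against 287, 287, 288, 281 and 271 CPM in normal 1 to 5. The normal libraries lay within a coefficient of variation of 2.57%, whereas the restricted ones spread over 10.7% and lay on both sides of them. The log2 fold change was −0.06 ± 0.09 (SE; 95% interval −0.27 to 0.14; adjusted p 0.742 in edgeR), and −0.01 without restricted 5.

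At the middle of the pathway, the gene for the regulatory enzyme varied more than the gene for the catalytic one. Pfkfb1 (ENSRNOG00000000165) had 59.7, 18.8, 37.5, 30.5 and 27.2 CPM in restricted 1 to 5, against 58.0, 65.2, 48.8, 52.4 and 51.7 CPM in normal 1 to 5. Restricted 2 to 5 lay below every normal library and restricted 1 lay within the normal range. The log2 fold change was −0.67 ± 0.26 (SE; 95% interval −1.24 to −0.10; unadjusted p 0.0257, adjusted p 0.180 in edgeR), short of the threshold. Without restricted 1 it was −0.96 with an adjusted p of 0.0158, so that library decides the call. Without restricted 5 it was −0.59 (adjusted p 0.293), and with only the libraries that had Kdm5d counts it was −1.02 (adjusted p 0.0105). Pfkl (ENSRNOG00000001214), the liver phosphofructokinase that commits sugar to glycolysis, had 42.5, 49.7, 39.0, 46.5 and 42.6 CPM in restricted 1 to 5, against 44.6, 53.0, 38.7, 46.6 and 45.5 CPM in normal 1 to 5. All restricted values lay inside the normal range, and the log2 fold change was −0.05 ± 0.10 (SE; 95% interval −0.26 to 0.16; adjusted p 0.804 in edgeR), and −0.04 without restricted 5.

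Pklr (ENSRNOG00000020420) encodes the pyruvate kinase of liver and red cells, which makes pyruvate and ATP in the last step of glycolysis. It had 4563, 2103, 3428, 1348 and 1516 counts in restricted 1 to 5, against 5908, 8072, 5137, 6867 and 6213 counts in normal 1 to 5. Scaled for depth, these are 203, 113, 237, 88.4 and 94.4 CPM in restricted 1 to 5, against 386, 514, 344, 454 and 419 CPM in normal 1 to 5. The groups did not overlap, which held, with the restricted group lower, for 3.44% of all genes tested. Within the restricted group, restricted 1 and 3 were the least reduced and restricted 4 and 5 the most, giving a coefficient of variation of 46.2% there, against 15.3% in the normal group. Pklr fell to 0.348 of its normal level, at 147 ± 68.1 CPM in restricted against 423 ± 64.8 CPM in normal libraries (SD, n = 5 per group; log2 fold change −1.52 ± 0.28 SE; 95% interval −2.14 to −0.90; adjusted p 0.0172 in edgeR). It ranked 162nd by p among the 12367 genes. In the authors' deposited table its log2 fold change was −1.52 with an adjusted p of 1.07e-06, and it was the only one of the 8 past their rule of p under 0.05 with an absolute log2 fold change over 1, which 3.82% of their genes met.

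No normal library lacked Kdm5d counts, so likely sex and diet cannot be told apart for the restricted libraries without them. Pklr was lower than in every normal library both in those libraries and in restricted 5. Without restricted 5 the log2 fold change was −1.40 (adjusted p 0.0256 in edgeR), and with only the libraries that had Kdm5d counts, restricted 5 and the normal ones, it was −2.16 (adjusted p 0.00202). That fit called 2 of the 8 genes, Pklr and Pfkfb1, both lower, beside 6.49% of all genes in either direction. With log2 CPM of Kdm5d as a covariate the log2 fold change of Pklr was −2.18, and the adjusted p of 0.0776 missed the threshold. Kdm5d was absent from every restricted library but restricted 5, so the covariate fit separates it from diet mainly through that library. The covariate fit called 1.24% of all genes and 0 of the 8 in edgeR, with 1 of the 8 at an unadjusted p under 0.05.

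In restricted 1 to 5, Pck1 (ENSRNOG00000028616), the cytosolic PEPCK that starts gluconeogenesis from oxaloacetate, had 2262, 3016, 1727, 3502 and 3408 CPM, against 2501, 3441, 1287, 1148 and 1195 CPM in normal 1 to 5. Normal 3, 4 and 5 were the lowest of the 10 libraries, whereas normal 1 and 2 lay among the restricted values. The log2 fold change of 0.54 ± 0.34 did not pass (SE; 95% interval −0.21 to 1.28; adjusted p 0.397 in edgeR). Without normal 2, the highest normal library, it was 0.86 (adjusted p 0.139), and without restricted 5 it was 0.46 (adjusted p 0.554).

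Fbp1 (ENSRNOG00000017597), the fructose bisphosphatase that opposes phosphofructokinase, had 662, 725, 572, 1108 and 635 CPM in restricted 1 to 5, against 801, 789, 541, 612 and 738 CPM in normal 1 to 5. Restricted 4 was the highest, and the other restricted libraries lay inside the normal range. The log2 fold change was 0.09 ± 0.18 (SE; 95% interval −0.30 to 0.48; adjusted p 0.824 in edgeR), 0.14 without restricted 5 and −0.09 without restricted 4. Slc37a4 (ENSRNOG00000011361), the carrier that brings glucose phosphate into the endoplasmic reticulum, had 58.7, 42.6, 78.6, 57.4 and 62.5 CPM in restricted 1 to 5, against 62.5, 83.1, 56.6, 65.3 and 62.6 CPM in normal 1 to 5. The groups overlapped, with restricted 2 the lowest, and the log2 fold change was −0.14 ± 0.15 (SE; 95% interval −0.46 to 0.18; adjusted p 0.638 in edgeR), and −0.16 without restricted 5. Pck1 and Fbp1 are known to be highest in periportal hepatocytes. Of 7 periportal markers, 0 passed in edgeR and 1 had an unadjusted p under 0.05, with a median log2 fold change of −0.03. Their summed level was 1276 to 1703 FPKM in restricted and 1203 to 1758 FPKM in normal libraries. Of 7 markers of pericentral hepatocytes, 1 passed in edgeR and was lower, and 3 had an unadjusted p under 0.05. The pericentral median log2 fold change was 0.18. The pericentral sum was 734 to 987 FPKM in restricted and 566 to 768 FPKM in normal libraries. A part of periportal or pericentral identity in the Pck1, Fbp1 or Pklr values was not tested.

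**Figure D3:**
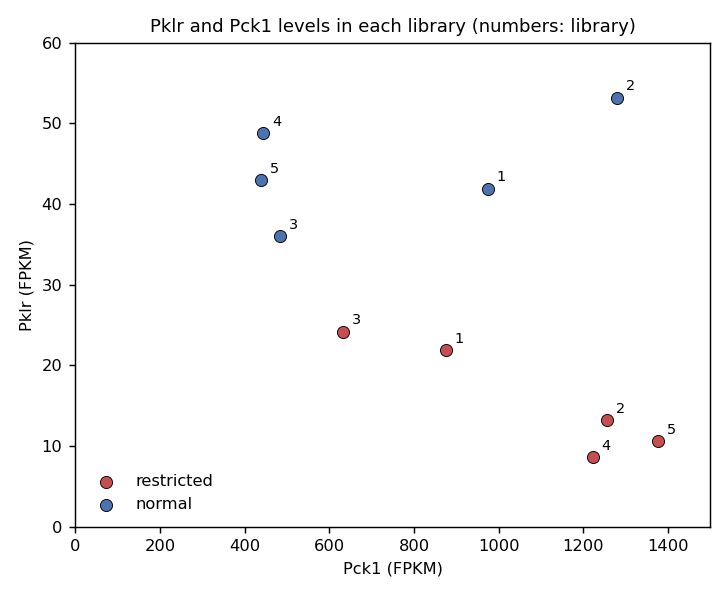
Deposited FPKM of Pklr (vertical) against Pck1 (horizontal) in each library, numbered within its group. The restricted libraries lie at 8.6 to 24.2 FPKM of Pklr, and normal 1 and 2 combine the Pck1 of the restricted libraries with the Pklr of the normal ones.

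Set side by side, Pck1 exceeded Pklr per length by 39.9, 95.4, 26.2, 142 and 129 times in restricted 1 to 5, against 23.2, 24.0, 13.4, 9.08 and 10.2 times in normal 1 to 5. The ranges of this FPKM ratio did not overlap, and neither did those of Pklr alone. Normal 1 and 2, with high Pck1, had Pklr of 386 and 514 CPM, so these libraries resembled the restricted ones in Pck1 but not in Pklr. The opposing pair in the middle of the pathway showed no such separation: Fbp1 exceeded Pfkl by 28.1 to 45.9 times in restricted and by 25.3 to 34.5 times in normal libraries.

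The other pyruvate kinase gene, Pkm, which is known to be expressed in most non-hepatocyte cells, had 22.1, 44.0, 23.4, 22.2 and 52.9 CPM in restricted 1 to 5, against 23.1, 22.0, 16.9, 22.9 and 18.3 CPM in normal 1 to 5. Restricted 2 and 5 were high and the other 3 restricted libraries lay near the normal ones; the log2 fold change of 0.67 ± 0.26 did not pass (SE; adjusted p 0.182 in edgeR). It was 0.44 without restricted 5 (adjusted p 0.290), and 1.36 with only the libraries that had Kdm5d counts, where it passed (adjusted p 0.00257). The 7 markers of Kupffer cells and macrophages summed to 389 FPKM in restricted 2 and 459.9 FPKM in restricted 5, against 166 to 208 FPKM in restricted 1, 3 and 4 and 158 to 212 FPKM in the normal libraries. Of these 7 markers 0 passed in edgeR and 3 had an unadjusted p under 0.05, with a median log2 fold change of 0.63 and none at 0. Lymphocyte markers (5 in the table) summed to 9.93 FPKM in restricted 2 and 15.4 FPKM in restricted 5, against 2.80 to 6.55 FPKM in restricted 1, 3 and 4 and 3.19 to 5.86 FPKM in the normal libraries. Their part in the Pkm values was not tested. Pklr was 203, 237 and 88.4 CPM in restricted 1, 3 and 4, and 113 and 94.4 CPM in restricted 2 and 5, where macrophage markers were high. A part of cell mix in the Pklr values was not tested either.

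The remaining genes of glycolysis were read from a list of 22, of which 19 were in the table and tested. In edgeR 0 passed and 6 had an unadjusted p under 0.05, beside 4.09% and 20.1% of all genes tested. The median log2 fold change was 0.00, beside 0.01 over all genes tested. DESeq2 called 3, all lower and Pgam1 among them, and limma-voom called 0. In edgeR, Hk2 passed without restricted 1, and 4 genes passed with only the libraries that had Kdm5d counts, all higher: Hk2, Hk3, Pfkfb3 and Pkm. The calls with only the libraries that had Kdm5d counts rest on restricted 5, where the summed macrophage and lymphocyte markers were highest. A part of cell mix in these calls was not tested. Without restricted 5, 0 passed in edgeR and 5 had an unadjusted p under 0.05. Pgam1, a mutase of lower glycolysis, had 129 to 146 CPM in restricted and 161 to 184 CPM in normal libraries (log2 fold change −0.28 ± 0.08 SE, adjusted p 0.0688). The groups did not overlap for Pgam1, although it did not pass in edgeR.

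Beside 2.22% of all genes tested that passed lower, 1 of 13 other gluconeogenesis genes tested passed and was lower. This was Mdh2, the mitochondrial malate dehydrogenase, at 169.5 ± 10.1 CPM in restricted and 222 ± 15.1 CPM in normal libraries (SD, n = 5; log2 fold change −0.39; adjusted p 0.0248 in edgeR). It missed the threshold without restricted 2 or 4 or normal 3, 4 or 5, at adjusted p of 0.0504 to 0.0693, and with only the libraries that had Kdm5d counts (log2 fold change −0.44, adjusted p 0.129). Without restricted 5 it was −0.38 and passed (adjusted p 0.0436). Pc, pyruvate carboxylase, and Pck2, the mitochondrial PEPCK, had log2 fold changes of −0.03 ± 0.12 and 0.17 ± 0.23 (SE; adjusted p 0.934 and 0.729). Glucose-6-phosphatase, the enzyme that Slc37a4 supplies, was not analysed here.

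In the fructose entry list 1 of 7 genes passed and was lower, beside 2.22% of all genes tested. Tkfc, the triokinase that phosphorylates the glyceraldehyde made from fructose, had 122 to 238 CPM in restricted and 231 to 352 CPM in normal libraries (log2 fold change −0.90 ± 0.19 SE, adjusted p 0.0208 in edgeR). It missed the threshold without restricted 2 (adjusted p 0.0562) and without normal 4 (0.0575), and passed without restricted 5 (−0.85, adjusted p 0.0386).

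The carbohydrate response list, that is partners and known targets of ChREBP, the factor that acts through the element shown in the Pklr promoter, held 10 tested genes. Mlxipl, the ChREBP gene itself, was not analysed here. Of the 10, 1 rose and 4 fell, beside 1.87% and 2.22% of all genes tested, and the median log2 fold change was −1.05. The list was chosen with earlier results of these data known, so its counts are no independent result. Acly, ATP citrate lyase, fell to 127 ± 47.4 CPM in restricted against 413 ± 63.0 CPM in normal libraries, and Acaca, acetyl-CoA carboxylase, to 79.5 ± 22.8 CPM against 178 ± 20.0 CPM (SD, n = 5; adjusted p 0.00528 and 0.00602 in edgeR). Me1, which makes NADPH, changed by −0.94 ± 0.19 and the fatty acid elongase Elovl6 by −1.59 ± 0.37 (log2, SE; adjusted p 0.0215 and 0.0437). Txnip, a known ChREBP target that restrains glucose uptake, moved the other way from Pklr, with 132 to 247 CPM in restricted and 88.9 to 123 CPM in normal libraries (log2 fold change 0.93 ± 0.19 SE, adjusted p 0.0194). Without normal 4 or normal 5 the adjusted p of Txnip was 0.0516 and 0.0579, and without normal 4 that of Me1 was 0.0598. With only the libraries that had Kdm5d counts, Acly and Acaca changed by −2.21 and −1.49 (log2). Me1 and Txnip, at −0.84 and 0.45, missed the threshold there. Without restricted 5 the value for Txnip was 1.03 (log2, adjusted p 0.00898). Elovl6 missed the threshold without restricted 2, 4 or 5 or normal 1, 2, 4 or 5. Without restricted 5 the list held 3 called genes lower and 1 higher, without normal 4 it held 2 lower and 0 higher, and with Kdm5d as a covariate Acly and Acaca were the only called genes of the 6 lists. The partner Mlx had a log2 fold change of −0.03 ± 0.11 (SE; adjusted p 0.904). A part of ChREBP, or of the lipogenic factor Srebf1 described next, in the changes of this list was not tested.

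Among regulators of gluconeogenic transcription 1 of 18 rose and 2 fell, beside 1.87% and 2.22% of all genes tested. Foxa1, a forkhead factor of liver genes, changed by −0.55 ± 0.11, Srebf1, the lipogenic factor that insulin induces, by −1.49 ± 0.29, and Cebpb, a factor that acts on the Pck1 promoter, by 0.62 ± 0.15 (log2, SE; adjusted p 0.0155, 0.0229 and 0.0403 in edgeR). Cebpb passed in edgeR without restricted 1 and missed the threshold without any other single library (adjusted p up to 0.0843). Srebf1 missed it without restricted 2, 4 or 5 or normal 3 or 5 (0.0501 to 0.0601), and Foxa1 passed without any single library. Without restricted 5, 0 rose and 1 fell. With only the libraries that had Kdm5d counts Cebpb and Foxa1 passed, and Srebf1, at −1.67, did not (adjusted p 0.164). Ppargc1a, the coactivator of gluconeogenic genes in fasting, had a log2 fold change of 0.40 ± 0.39 (SE; adjusted p 0.601).

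In the insulin and glucagon list 1 of 17 rose and 1 fell, beside 1.87% and 2.22% of all genes tested. Trib3, an inhibitor of AKT, had 15.9 to 26.6 CPM in restricted and 3.91 to 14.0 CPM in normal libraries (log2 fold change 1.54 ± 0.32 SE, adjusted p 0.0274 in edgeR). Prkaca, a catalytic subunit of the kinase that carries the glucagon signal, had 34.9 to 41.0 CPM in restricted and 44.5 to 59.3 CPM in normal libraries (log2 fold change −0.42 ± 0.10 SE, adjusted p 0.0329). Trib3 missed the threshold without restricted 2 or 4 or normal 2, 3, 4 or 5 (adjusted p 0.0520 to 0.0730), and Prkaca without restricted 2, 4 or 5 or normal 3, 4 or 5 (0.0517 to 0.0917). With only the libraries that had Kdm5d counts neither passed, at log2 fold changes of 1.21 for Trib3 and −0.43 for Prkaca (adjusted p 0.307 and 0.215).

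**Figure D4:**
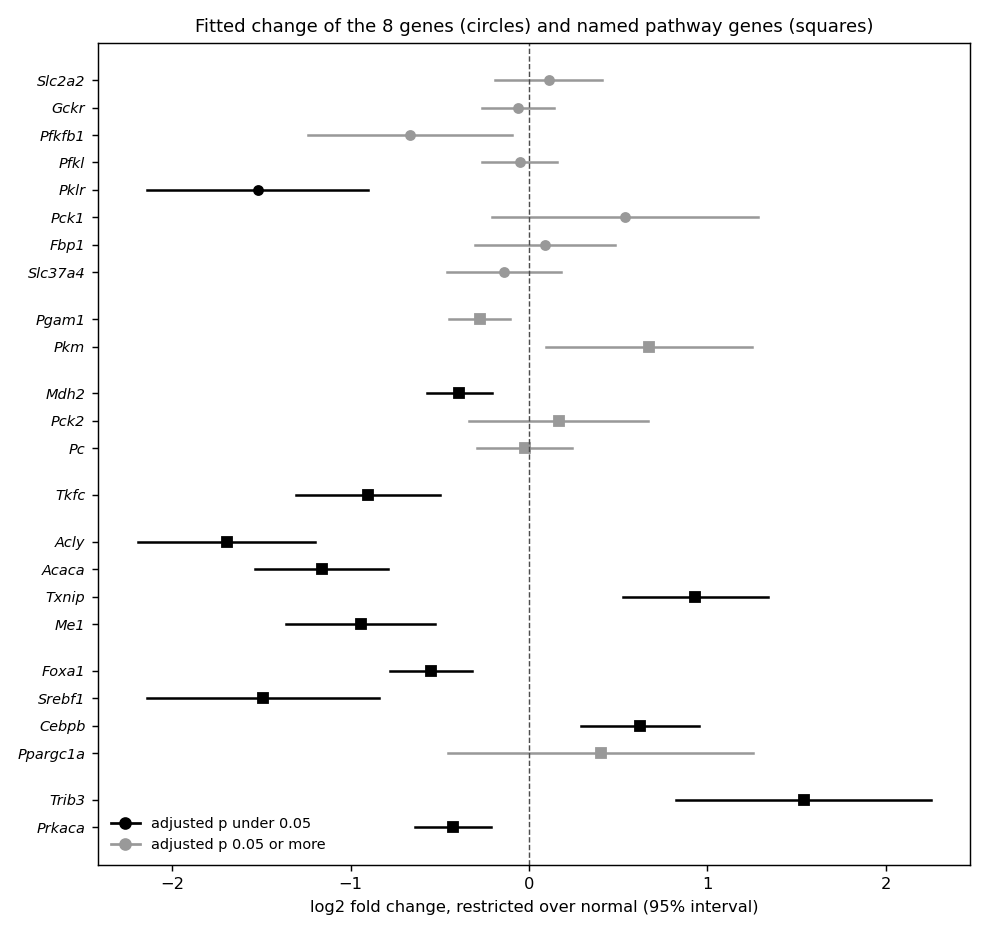
Fitted log2 fold change of restricted over normal with its 95% interval, for the 8 genes (circles, top) and named genes of each list (squares). Black marks passed an adjusted p of 0.05 in edgeR; of the 8 genes Pklr alone is black, at −1.52.

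The spread over the 10 libraries differed among the 8 genes. Pklr, Pck1 and Pfkfb1 had SDs of log2 CPM of 0.974, 0.656 and 0.585, and the other 5 had 0.115 to 0.298. For these 3, the genes of most similar pattern were found by the root-mean-square difference of log2 CPM over the 10 libraries, after centring each of 11802 genes on its own mean. Closest to Pklr were Acly at 0.243, Acaca at 0.318 and Ddc, aromatic amino acid decarboxylase, at 0.335, where the median gene was at 0.954. Acly shared the order within the restricted group, with 193 CPM in restricted 3 and 162 CPM in restricted 1, against 107, 86.0 and 89.4 CPM in restricted 2, 4 and 5. It did not share the order within the normal group: normal 2 had the highest Pklr there, 514 CPM, and the lowest Acly, 346 CPM. Closest to Pck1 were Chodl, with only 5 to 28 counts a library, at 0.263, the gap junction gene Gjb2 at 0.313 and Insig2, which retains the SREBP complex, at 0.329 (median gene 0.670). These 3 were, like Pck1, higher in normal 2 than in any other normal library; Insig2 had 393 CPM there and 241, 213, 150.1 and 178 CPM in normal 1, 3, 4 and 5. Closest to Pfkfb1 were the CTP synthase gene Ctps1 at 0.220, Col24a1 at 0.244 and Mrnip at 0.275 (median gene 0.601). Of these 9 neighbours, Acly and Acaca passed the test, beside 4.09% of all genes tested. The match over the 10 libraries includes the difference between the groups. That neighbours of Pklr also passed is therefore no separate result.

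**Figure D5:**
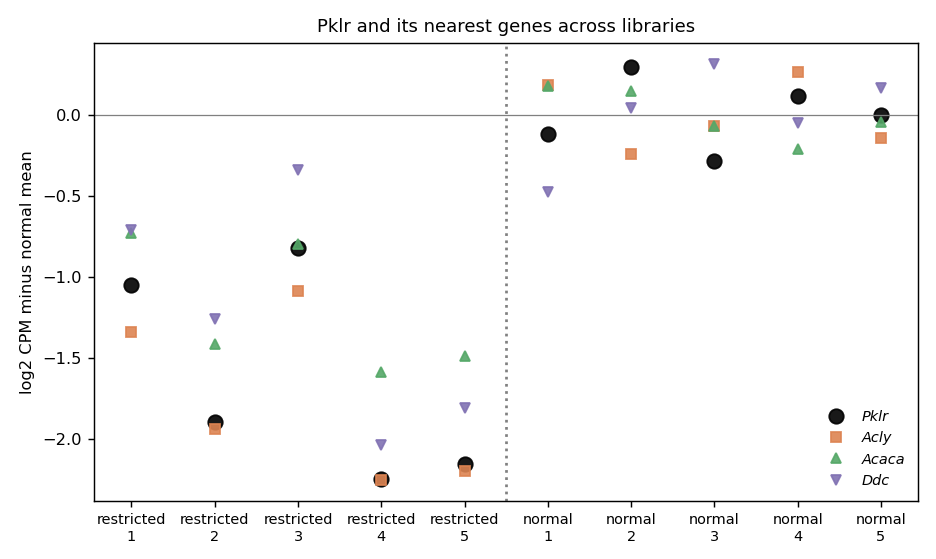
Log2 CPM of Pklr and its 3 nearest genes in each library, as the difference from each gene's normal mean. Pklr, Acly, Acaca and Ddc all lie below 0 in all 5 restricted libraries, least so in restricted 1 and 3.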

How the data were processed

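RNA was sequenced from 10 rat liver libraries on an Illumina NovaSeq instrument; per the series' design text, reads passed a Q30 filter and were aligned with HISAT2, and per the submitters' processing notes bcl2fastq, fastp and HTSeq were used on rn7. The sources used here name no version, gene annotation, strand setting or row filter. Per the file headers, the table holds the authors' raw counts and FPKM per gene and library. The authors also deposited a fold (a ratio with restricted on top), its log2, and a p-value of their own test.

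From the counts, edgeR 4.0.16 in R 4.3.3 gave quasi-likelihood tests (two-sided) without a block. filterByExpr with a minimum count of 10 kept 12367 genes and removed 188; scaling was TMM, fits were robust and p-values were adjusted over all genes tested. CPM use TMM library sizes. FPKM served only for levels between genes. Pipelines were tested on simulated data. Within groups, pairs of libraries differed by a chi-square per degree of freedom of at least 21.2, so none was a duplicate. Named are the 8 genes, list genes that passed (up to 4 by p, otherwise the 2 smallest), 7 fixed genes, 3 sex-related genes and nearest genes, of which some are not reported here; Elovl6, Mlx, Serpina1, Ttr, Hk2, Hk3 and Pfkfb3 were named after their values were seen. The members and lists were chosen with earlier results of these data known. Also tried were DESeq2 1.42.0 and limma-voom (limma 3.58.1), scaling by RLE or upper quartile, keeping every gene or those at 1 CPM in at least 5 libraries, a block for replicate number, Kdm5d as a covariate, only libraries with Kdm5d counts, and each library left out. Lists were counted under these alternatives after the data were seen. Coordinates and promoters are of GRCr8, another build than the authors' rn7.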

Additional observations from a re-analysis of the deposited data

Results flagged for a closer look

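In 7 groups of 5 libraries, out of 52 looked at, the highest or lowest library lay far from the other 4; chance alone gives about 1 in 20 groups. Fbp1 had 1108 CPM in restricted 4, against 572 to 725 CPM in the other restricted libraries. Me1 had 24.7 CPM in restricted 4, against 44.3 to 48.5 CPM in the others, and Srebf1 had 121 CPM in restricted 3, against 50.8 to 70.7 CPM. In the normal group, Ppargc1a had 14.3 CPM in normal 2, against 3.88 to 5.43 CPM in the others, and Mdh2 had 195 CPM there, against 228 to 230.5 CPM. Cebpb had 109 CPM in normal 3, against 157 to 174 CPM, and Trib3 had 14.0 CPM in normal 1, against 3.91 to 5.86 CPM.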

How the results depend on the processing

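Pklr kept its direction in all 19 alternatives and passed in 17, with log2 fold changes of −2.18 to −1.38; leaving out 1 library gave adjusted p of 0.00695 to 0.0472. It missed the threshold with the replicate number as a block (−1.64, adjusted p 0.0565) and with Kdm5d as a covariate (−2.18, adjusted p 0.0776). Each of these fits called 0 of the 8 genes in edgeR, with 2 and 1 at an unadjusted p under 0.05. The same-numbered libraries' deviations correlated at −0.185 to 0.121 across genes, and 2 of 5 restricted libraries correlated best with their own number, so the numbers were not taken as pairs. With only the libraries that had Kdm5d counts 2 of the 8 passed, and leaving out 1 library gave 1 to 2. Over all genes the count of 506 became 1049 with DESeq2, 265 with the block, 153 with the covariate, 802 with only the libraries that had Kdm5d counts, and 213 to 470 with 1 library left out (231 and 301 without restricted 2 and 4; 265, 226 and 213 without normal 3, 4 and 5). Signs turned for genes that had not passed: Slc2a2 to −0.12 with the covariate and −0.12 with only the libraries that had Kdm5d counts, Fbp1 to −0.14 and −0.13 in these and −0.09 without restricted 4 (−0.09 to 0.17 with 1 library left out), Ppargc1a to −0.09 in both, Pfkl to 0.01 without normal 2 (−0.11 to 0.01), and Pc to 0.02, 0.06 and 0.01 without restricted 3, normal 2 and normal 3 (−0.08 to 0.06); the cause was not tested.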
